A study of Mus musculus with 194 samples.

Results

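L1210 is a mouse lymphocytic leukemia cell line, and its single-cell transcriptomes are described here across genes, across the sister and cousin families of the cells, and beside the activated primary CD8+ T-cells of the same study. The members were all libraries that the labels assign to the line, without those labelled as a doublet and without those with fewer than 1000 genes above 0 TPM. Of 88 deposited L1210 libraries, 2 were doublets and 5 others fell under the gene minimum, which left 81 cells out of 178 retained in the whole series of 194. The line is labelled as DBA subline 212 with the catalogue number CCL-219. The comparison cells were CD8+ T-cells of strain C57BL/6J that had been activated for 30 h with antibodies to CD3 and CD28 and were then grown with interleukin 2, which the L1210 medium lacked, and 97 of them were retained. Cell type, mouse strain, culture medium and activation differ together between the groups and cannot be told apart. Each founding cell was grown for 2 generations in a microfluidic trap array, its progeny were released one by one, and each was sequenced by full-length single-cell RNA-seq. The labels name the sister of most cells and, for fewer of them, the cousins, and these were used to build lineages, the progeny of 1 founding cell. Where no cousin is named, a pair of sisters or a single cell was taken as a lineage, so relatives that the labels do not join may stand in separate lineages. L1210 cells fell into 26 lineages, of which 14 held 4 cells, 3 held 3, 7 held 2 and 2 held 1, and the CD8+ T-cells fell into 34. The labels name no separate culture, mouse or device run, so p-values of the comparisons of cell types and of time measure the spread between lineages only, and those of differences between lineages the spread between relatives within them.

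In normal B-cell development, a progenitor that has joined the gene segments of its immunoglobulin heavy chain tests the product before a light chain exists. The heavy chain is brought to the surface with a surrogate light chain, made of VpreB proteins and the lambda-like chain encoded by Igll1, and with the signalling chains encoded by Cd79a and Cd79b. This pre-B-cell receptor is made only for a short window of development and is lost as the cell matures, while its expression is kept in leukemias that arise at that stage. L1210 was raised in a DBA mouse and has long served as a test system for antifolates and other antimetabolites, which makes its folate genes of interest as well.

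Expression is given in TPM, the share of transcripts after correction for their length, scaled to the same total in each cell, and statistics use ln(TPM + 1). The depth of the libraries cannot be read from TPM, and read numbers were not used here. The number of genes above 0 TPM ran from 1610 to 10454 in L1210 cells (median 8402) and from 2639 to 10905 in CD8+ T-cells (median 6862). Rn45s, the ribosomal RNA precursor, took 22.3% ± 8.40 of TPM in L1210 cells (SD, n = 81). Of these cells, 4 had fewer than 4000 detected genes, and among them L1210_8 gave 79.3% and L1210_15 gave 55.5% of its TPM to Rn45s. The lineage of L1210_8 and L1210_84 had a mean of 3835 detected genes and stood apart from the rest, so several results that rest on it are given with and without it. A gene listed at 0 is not necessarily silent, since Tbp, a transcription factor every cell uses, was above 0 in only 77 of the 81 cells. A gene listed at 0 in all 81 L1210 cells may still be above 0 in up to 3.7% of such cells, and one at 0 in all 97 CD8+ T-cells in up to 3.09%, limits that cover counting error only and take cells as independent. Relatives are not independent, and counted over the 26 and 34 lineages the limits are 11.5% and 8.82% of lineages.

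The first comparison asked which genes set the leukemia apart from normal activated lymphocytes. L1210 cells carried a B-lineage program of transcripts. It held the surrogate light chain and signalling chains of the pre-B-cell receptor, transcription factors and downstream signalling genes. The heavy chain gene of the receptor was not measured, and Cd3e and Cd3g of the T-cell receptor complex were at 0. Of 11373 genes tested on lineage means with limma, 2305 were higher in L1210 cells (20.3%) and 563 were lower (4.95%), where a call required a Benjamini-Hochberg adjusted p under 0.05 and a difference above 1 ln unit, which is 2.7183-fold. The median difference over all genes was 0.41 ln units in the direction of L1210, the cells with more detected genes. With the number of detected genes as a covariate the median fell to 0.15 and the higher share of all calls from 80.4% to 60.8%, and with a pseudocount of 10 TPM that share was 64.5%. The differences below are to be read against that median, and counts over lists against the 20.3% higher and 4.95% lower of all genes. Of the members of the 3 B-lineage lists, 43 were tested, 32 were higher, and 1 was lower, with a median difference of 2.65 ln units. Genes were tested if expressed in either cell type, so a gene unseen in the CD8+ T-cells could not come out lower. Likewise, a gene unseen in L1210 cells could not come out higher, so counts over lists are a description. Lineage means that did not overlap at all were rare, with 0.879% of genes entirely above the CD8+ T-cells and 0.536% entirely below them.

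**Figure D1:**
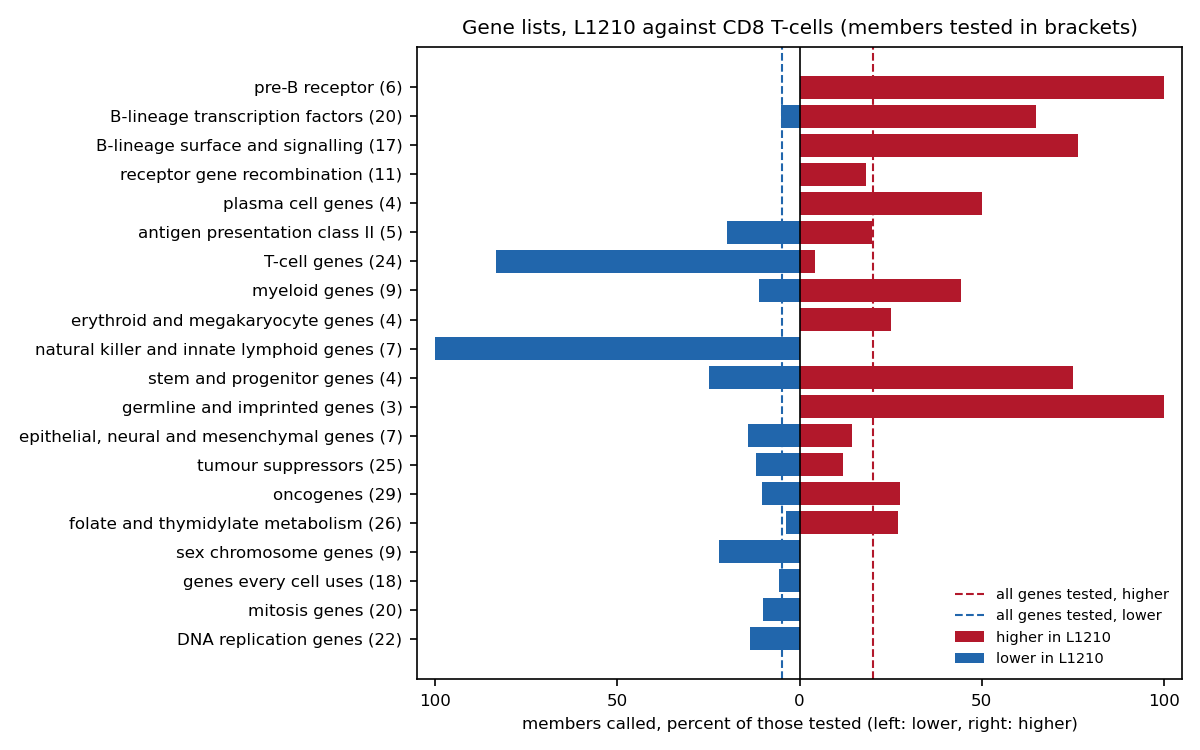
Percent of the tested members of each gene list called lower (left) or higher (right) in L1210 cells than in CD8+ T-cells (limma on lineage means, 26 and 34 lineages); dashed lines mark the share over all genes tested. The pre-B-cell receptor list reaches 100% higher, the T-cell list 83.3% lower and the natural killer list 100% lower.

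The label was checked first against defining markers of each blood cell type. The B-lineage markers Cd79a, Pax5, Ebf1, Vpreb1 and Igll1 were above 0 in 76 to 80 of the 81 cells. Cd79b was above 0 in 79. The T-cell markers Cd3e and Cd3g were at 0 in every cell, and Cd3d, Cd8a, Lck, Zap70 and Cd8b1 were above 0 in 5 to 23 cells and reached at most 45.7 TPM. Among myeloid markers, Csf1r was above 0 in 1 cell, Mpo in 2 and Itgam in 6, while Lyz2 was above 0 in 36. Among erythroid markers, Gata1 and Hbb-b1 were at 0, Hba-a1 was above 0 in 5 cells and Klf1 in 12. The markers are those of a B-lineage precursor, and the genes of other blood lineages that L1210 cells did express are taken up below.

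All 6 measured members of the pre-B-cell receptor list were higher in L1210 cells, with a median difference of 5.51 ln units. The list holds the surrogate light chain genes Igll1, Vpreb1 and Vpreb2 and the signalling chains Cd79a and Cd79b. It also holds Vpreb3, which is not part of that light chain. The heavy and kappa chain constant genes Ighm and Igkc were not found among the gene names. Igll1 (chr16:16860671-16863985, GRCm38, minus strand) and Vpreb1 (chr16:16868403-16870843, minus strand) lie next to each other, with RefSeq start sites 5270 bases apart. Vpreb2 (chr16:17980428-17981273, plus strand) is a near copy of Vpreb1 that starts 1111310 bases further along the same chromosome, and Vpreb3 (chr10:75943057-75949657, plus strand) stands alone. The sequences before the RefSeq starts of these genes are shown because the 4 genes share a pattern, being at 0 in every CD8+ T-cell and above 0 in most L1210 cells. They are 250 bases each, from RefSeq (GRCm38.p6), at chr16:16863986-16864235 for Igll1, chr16:16869256-16869505 for Vpreb1 and chr10:75948050-75948299 for Vpreb3, all on the strand of the gene. For Vpreb2 only the 113 bases that end before its annotated untranslated region are shown, at chr16:17980315-17980427. The Vpreb1 stretch overlaps an exon of an annotated noncoding transcript of that gene. Capitals mark letters that match 3 of the 4 motifs searched on both strands, which were TCCC and GGGA with any 2 bases between them (bound by EBF), CAGGTG (an E-box), GAGGAA (the core bound by ETS factors such as PU.1) and ATGCAAAT (the octamer bound by Oct factors). In the stretches shown, no matches of different motifs overlap.
Igll1: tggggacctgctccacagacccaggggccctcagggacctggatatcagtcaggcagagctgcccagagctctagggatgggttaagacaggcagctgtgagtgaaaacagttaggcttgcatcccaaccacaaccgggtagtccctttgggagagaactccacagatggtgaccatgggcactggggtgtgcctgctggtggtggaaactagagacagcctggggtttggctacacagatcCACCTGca
Vpreb1: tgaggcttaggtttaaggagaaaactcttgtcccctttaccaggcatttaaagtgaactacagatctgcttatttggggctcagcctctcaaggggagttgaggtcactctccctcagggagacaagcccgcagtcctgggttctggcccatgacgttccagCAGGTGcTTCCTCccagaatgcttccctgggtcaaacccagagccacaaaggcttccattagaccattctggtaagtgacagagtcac
Vpreb2: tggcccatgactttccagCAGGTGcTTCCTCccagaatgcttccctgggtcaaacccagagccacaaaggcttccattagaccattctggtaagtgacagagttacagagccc
Vpreb3: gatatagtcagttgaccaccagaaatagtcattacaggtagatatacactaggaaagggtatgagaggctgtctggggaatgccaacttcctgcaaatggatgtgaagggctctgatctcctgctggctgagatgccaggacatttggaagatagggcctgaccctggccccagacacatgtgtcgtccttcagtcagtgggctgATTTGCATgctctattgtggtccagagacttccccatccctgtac

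The E-box letters stand in the Igll1, Vpreb1 and Vpreb2 stretches and the ETS letters beside them in Vpreb1 and Vpreb2, where 91 bases in a row are identical. The octamer letters stand in Vpreb3, and the EBF letters are in none of these windows. Among 27025 RefSeq promoters of 250 bases, CAGGTG was found in 17.1%, GAGGAA in 23.1%, ATGCAAAT in 1.61% and the EBF motif in 0.788%, so that a match to either of the first 2 is common. A match is a description of letters and not a measured binding site.

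Igll1 was above 0 in 78 of 81 L1210 cells, with a median of 745 TPM and a highest value of 1706 TPM, and was at 0 in all 97 CD8+ T-cells. Lineage means of the 2 cell types did not overlap, the lowest L1210 lineage standing at 3.10 ln units, and the difference was 6.09 ± 0.20 ln units (SE, 26 against 34 lineages; limma adjusted p = 1.7e-40). Against a group at 0 such a difference depends on the pseudocount, so it is neither a fold nor a bound. Vpreb1 was above 0 in the same number of cells, with a median of 483 and a highest value of 1363 TPM (difference 5.88 ± 0.18), and Vpreb3 in 77 cells, with a median of 280 and a highest value of 1649 TPM (5.27 ± 0.23). Both were at 0 in every CD8+ T-cell. Vpreb2 was the weak and uneven member, above 0 in 54 cells with a median of 32.8 and a highest value of 476 TPM (2.65 ± 0.28, adjusted p = 3.4e-13). Of 30-base stretches of Vpreb2, 51.5% also occur in Vpreb1, so reads of these copies may have been split by the counting. In no cell was Vpreb2 above 0 without Vpreb1, while 24 cells had Vpreb1 alone.

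The signalling chains of the receptor were as broadly expressed as its surrogate light chain. Cd79a (chr7:24897381-24902197) was above 0 in 80 cells with a median of 426 and a highest value of 1316 TPM, against 10 CD8+ T-cells that reached at most 27.9 TPM (5.76 ± 0.15, adjusted p = 3.5e-47). Cd79b (chr11:106311341-106314762) had a median of 312 TPM in L1210 cells but was also above 0 in 47 CD8+ T-cells, 1 of which reached 283 TPM, and its lineage means overlapped (3.76 ± 0.27).

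**Figure D2:**
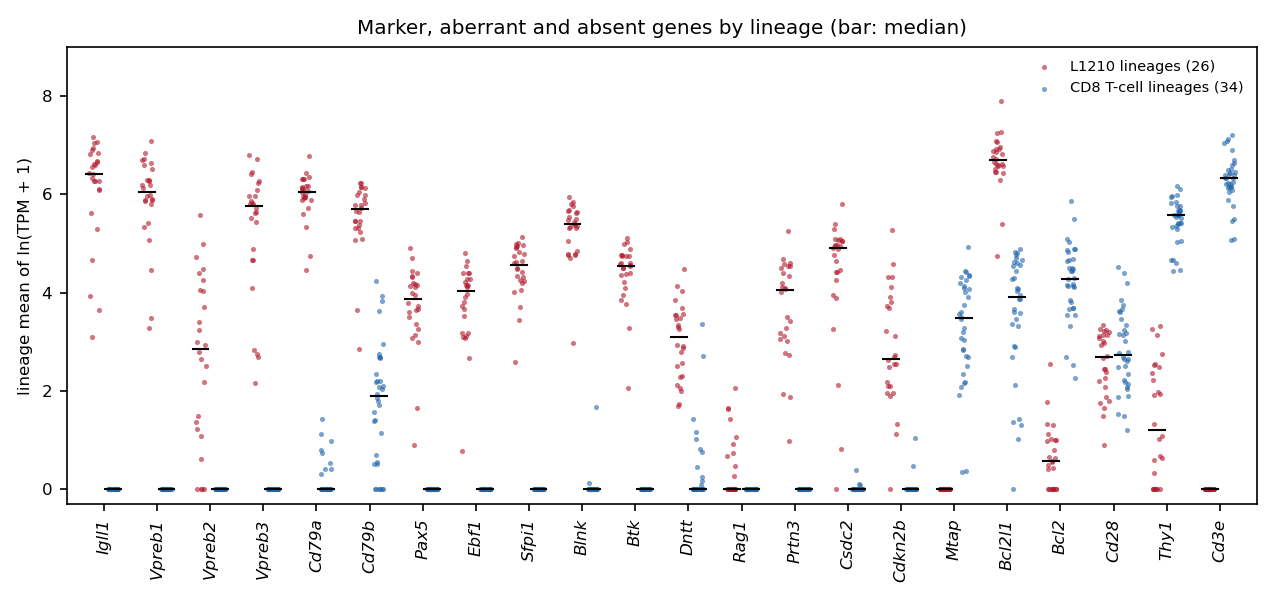
Lineage means of ln(TPM + 1) for 22 genes, with 1 point for each of 26 L1210 and 34 CD8+ T-cell lineages and a bar at the median. Igll1, Vpreb1, Vpreb3 and Cd79a are above 0 in every L1210 lineage, with means of Vpreb3 going down to 2.17. Cd3e is at 0 in all L1210 lineages and between 5.08 and 7.21 in the CD8+ T-cells.

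Of the 20 B-lineage transcription factors tested, 13 were higher in L1210 cells (65%, against 20.3% of all genes), 1 was lower and 6 were not called. Pax5, the factor that commits a progenitor to the B lineage, was above 0 in 77 cells with a median of 51.6 and a highest value of 361 TPM. Ebf1, which acts just before it, was above 0 in 76 cells with a median of 59.4 and a highest value of 209 TPM. Both were at 0 in all CD8+ T-cells, and neither overlapped between the groups (3.70 ± 0.17 and 3.78 ± 0.16 ln units). Sfpi1, which encodes PU.1, a factor of myeloid and early B cells, had a median of 101.4 and a highest value of 585 TPM and was also at 0 in every CD8+ T-cell (4.45 ± 0.13). Tcf4 (3.99 ± 0.11), Pou2af1 (3.88 ± 0.22) and Bcl11a (3.53 ± 0.14) followed, which are a class I basic helix-loop-helix factor, a B-cell coactivator of octamer-binding factors and a zinc finger factor of early lymphoid cells. Runx1 (2.65 ± 0.16), Myb (1.79 ± 0.23), Irf8 (1.65 ± 0.26), Bcl6 (1.63 ± 0.17), Pou2f2 (1.52 ± 0.22) and Lmo2 (1.46 ± 0.15) were higher by smaller amounts. Erg (1.05 ± 0.18) was called as well, but not with the detected genes as a covariate. Tcf3, whose E2A products act upstream of Ebf1, did not pass the test (−0.34 ± 0.22, adjusted p = 0.18) and was expressed in both cell types, with medians of 26.2 and 45.8 TPM. The exception was Ikzf3, which encodes Aiolos, a factor that rises as pre-B cells stop dividing. It was above 0 in 2 L1210 cells, against 87 CD8+ T-cells and a median there of 22.97 TPM, and was lower in L1210 cells (−2.60 ± 0.22, adjusted p = 1.8e-17). Spib, a relative of PU.1 found in mature B cells, was above 0 in 9 L1210 cells.

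Surface and signalling genes of the B lineage were mostly higher where they could be tested. Of 26 genes on the list 17 could be tested, and 13 of these were higher and none lower. Members unseen in the CD8+ T-cells passed the filter through L1210 cells only, which fixes their direction. Transcripts of the chain that carries the receptor signal inward were found at each step. Blnk, the adaptor, had a median of 219 TPM in L1210 cells (5.21 ± 0.15), Btk, the kinase, of 95.2 TPM (4.39 ± 0.14) and Plcg2, the phospholipase, of 335 TPM (5.38 ± 0.17). Lineage means of these 3 genes, of Lyn (3.89 ± 0.15), Bank1 (3.32 ± 0.17) and Cd22 (2.40 ± 0.17) did not overlap between the cell types. Cd24a (4.25 ± 0.20), Tnfrsf13c, the receptor for the survival factor BAFF (3.16 ± 0.24), Cd72 (2.89 ± 0.27), Syk (1.91 ± 0.14), Il7r (1.501 ± 0.26) and Cr2 (1.10 ± 0.13, lost with the covariate) were higher with overlap.

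Other members of the list were found in few or no cells. Kit and Ly6d, which mark early progenitors, were at 0 in all 81 cells, and Flt3, Blk and Bst1 were above 0 in 1 cell each. Ms4a1, which encodes CD20 of mature B cells, was above 0 in 1 cell, Fcrla in 2, Cd40 in 8 and Cd93 in 16. Enpep, a surface peptidase of pre-B cells known as BP-1, was above 0 in 32 L1210 cells and no CD8+ T-cell, with a difference of 0.74 ± 0.13 that did not reach the minimum size.

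Genes that recombine and diversify receptor genes were not raised as a group. Of 11 tested, 2 were higher (18.2%, against 20.3% of all genes) and none lower. The median difference of 0.42 was near that of all genes. Dntt, the terminal transferase that adds bases at the joints, was above 0 in 72 cells with a median of 25.96 and a highest value of 183 TPM (2.66 ± 0.21), and Dclre1c, the hairpin-opening nuclease Artemis, had a median of 73.3 TPM (2.05 ± 0.21). The recombinase itself was patchy, with Rag1 above 0 in 22 cells and Rag2 in 18. Neither was called against the CD8+ T-cells (0.42 ± 0.11 and 0.34 ± 0.09 ln units).

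Plasma cell and class II antigen presentation genes were mixed. Of 4 plasma cell genes tested 2 were higher (50%), and of 5 class II genes 1 was higher and 1 lower (20% each). Over all genes these shares were 20.3% higher and 4.95% lower. The summed lists had medians of 560 and 71.3 TPM in L1210 cells, against 241 and 72.3 TPM in the CD8+ T-cells. Prdm1, the regulator of plasma cells, and Tnfrsf17 were at 0 in every L1210 cell. Mzb1, a chaperone of the endoplasmic reticulum in B cells, was an exception with a median of 451 TPM in 79 cells (5.82 ± 0.15, no overlap), although 55.2% of its 30-base stretches also occur in other annotated transcripts. Sdc1 (1.91 ± 0.16) was called as well. Of the class II genes, Cd74 was above 0 in 20 cells, H2-Eb1 in 7, H2-Aa and the class II regulator Ciita in 4 and H2-Ab1 in 1. H2-Ob, a chain of the B-cell modulator of peptide loading, was higher (70 cells, 2.51 ± 0.17), and its partner H2-Oa was lower (−1.09 ± 0.28).

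T-cell genes were mostly lower, with 20 of 24 tested lower (83.3%, against 4.95% of all genes), 1 higher and 3 not called (median −4.01 ln units). Cd3e was at 0 in every L1210 cell and had a median of 571 TPM in all 97 CD8+ T-cells (−6.29 ± 0.13, adjusted p = 8.9e-52). Lat (−6.01 ± 0.13), Lck (−5.81 ± 0.18) and Zap70 (−4.75 ± 0.15), which carry the T-cell receptor signal, did not overlap between the groups. The 7 natural killer genes tested were all lower, with a median of −3.13. Ptcra, the pre-T-cell receptor alpha chain, went against the list. It was above 0 in 71 L1210 cells with a median of 16.8 and a highest value of 385 TPM, and was higher than in the CD8+ T-cells (1.81 ± 0.23). Cd28, a costimulatory receptor of T-cells, was above 0 in 72 L1210 cells and 85 CD8+ T-cells and did not pass the test (−0.28 ± 0.21, adjusted p = 0.24). Thy1 was above 0 in 46 L1210 cells, up to 91.9 TPM, against a median of 262 TPM in the CD8+ T-cells (−4.07 ± 0.22).

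Single genes of myeloid and megakaryocyte cells were present without the rest of their programs. Of 22 myeloid genes, 9 could be tested. Of these 4 were higher (44.4%, against 20.3% of all genes) and 1 lower (11.1%, against 4.95%). Prtn3 (chr10:79874476-79883174), the neutrophil granule protease proteinase 3, was above 0 in 73 cells with a median of 64.9 and a highest value of 269 TPM, and was at 0 in all CD8+ T-cells with no overlap (3.65 ± 0.18, adjusted p = 7.3e-29). Its granule partners Elane and Ctsg were at 0 in every L1210 cell, and so were the myeloid factors Cebpa and Cebpb and the neutrophil genes S100a8 and S100a9. Cd14 (41 cells, 1.29 ± 0.16), Fcgr1 (44 cells, 1.26 ± 0.15) and Lyz2 (36 cells, 1.24 ± 0.20) were found in about the same number of cells as not. Ly6c2 was the lower member, at 0 in L1210 cells and above 0 in 65 CD8+ T-cells. The summed myeloid list had a median of 104.96 TPM and a highest value of 403 TPM in L1210 cells, against 97.4 and 2724 TPM in the CD8+ T-cells.

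Pf4, platelet factor 4, was above 0 in 39 cells with a highest value of 328 TPM (1.49 ± 0.23). Tal1, a factor of erythroid and stem cells, was above 0 in 43 cells but was not called (0.89 ± 0.11). Among stem and progenitor genes, Gfi1 (1.77 ± 0.24) and Bmi1 (1.51 ± 0.20) were higher, while Ly6a, which encodes the stem cell antigen Sca-1, was lower (−4.38 ± 0.32), with 17 L1210 cells and 91 CD8+ T-cells above 0.

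Germline and imprinted genes were mostly unmeasurable, as 3 of 25 could be tested. These 3 were higher, a direction that the filter fixes for a gene seen in no CD8+ T-cell, such as Grb10. Nanog, a factor of pluripotent cells, was above 0 in 69 cells with a median of 21.5 and a highest value of 700 TPM, but also in 52 CD8+ T-cells (1.73 ± 0.26). The other pluripotency factors Pou5f1 and Sox2 were at 0 in every L1210 cell. Grb10, an imprinted adaptor, was above 0 in 71 L1210 cells and no CD8+ T-cell (2.44 ± 0.17), and Stra8, a gene of germ cells entering meiosis, in 47 L1210 cells (1.27 ± 0.16). In the list of epithelial, neural and mesenchymal genes, 1 of 7 tested was higher. This was Csdc2 (chr15:81936759-81950941), an RNA-binding cold shock domain protein, which was above 0 in 72 cells with a median of 124 and a highest value of 329 TPM, against 3 CD8+ T-cells that reached 3.72 TPM (4.31 ± 0.23, adjusted p = 4.2e-27). Afp was the lower member of the list, at 0 in L1210 cells and above 0 in 43 CD8+ T-cells.

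Genes of growth control were not called in 1 direction. Of 29 oncogenes tested, 8 were higher (27.6%, against 20.3% of all genes), 3 lower (10.3% against 4.95%) and 18 not called. The antiapoptotic pair Bcl2l1 and Bcl2 moved in opposite directions. Bcl2l1 (chr2:152780668-152831728), which encodes Bcl-xL, had a median of 860 and a highest value of 3176 TPM in L1210 cells against a median of 57.3 TPM in the CD8+ T-cells (3.12 ± 0.25, adjusted p = 6.9e-18). Bcl2 (chr1:106538178-106714274) was above 0 in 31 L1210 cells, up to 34.5 TPM, while 96 CD8+ T-cells were above 0 and their group had a median of 81.5 TPM (−3.57 ± 0.20, adjusted p = 3.1e-26). The Pim kinases split as well, with Pim1 higher (2.83 ± 0.24) and Pim2 lower (−1.70 ± 0.35), and of the Janus kinases Jak1 was lower (−1.11 ± 0.17). Myc had medians of 274 and 113 TPM (1.22 ± 0.31), and this call and those of Mdm2 (1.12 ± 0.26), Stat3 (1.06 ± 0.24) and Abl1 (1.05 ± 0.22) were lost with the detected genes as a covariate.

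Of 25 tumour suppressors tested, 3 were higher (12%, against 20.3% of all genes), 3 lower (12%, against 4.95%) and 19 not called. Cdkn2b, an inhibitor of cyclin-dependent kinases, was above 0 in 66 L1210 cells with a median of 26.1 and a highest value of 207 TPM, against 2 CD8+ T-cells (2.82 ± 0.21, adjusted p = 7.7e-20), and Nf2 (1.63 ± 0.24) was also higher. Mtap, a neighbour of Cdkn2b that encodes the methylthioadenosine phosphorylase that salvages adenine and methionine, was at 0 in every L1210 cell, while 86 CD8+ T-cells were above 0 and the median there was 45.6 TPM (−3.26 ± 0.22, adjusted p = 3.6e-22). The genes lie close together on chromosome 4 (GRCm38), with Mtap at 89137122-89181081, Cdkn2a at 89274471-89294653 and Cdkn2b at 89306299-89311039. Cdkn2a was above 0 in 5 L1210 cells and no CD8+ T-cell. On the other side of Mtap, and chosen after their values were seen, the interferon zeta genes were each above 0 in 5 to 24 L1210 cells, but 78.5% to 100% of their 30-base stretches occur in other genes, so these reads cannot be placed at 1 of them. Klhl9 (88718292-88722465) was above 0 in 74, and Focad (88094629-88411011) in 59. Klhl9 and Cdkn2b, which share no such stretches, thus stood on either side of Mtap. Tet2, a DNA demethylase, was above 0 in 2 L1210 cells and 62 CD8+ T-cells (−1.18 ± 0.15), and Btg1 was also lower (−1.04 ± 0.22). Trp53, which encodes p53, had medians of 241 and 248 TPM and did not pass the test (0.06 ± 0.20, adjusted p = 0.81).

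Folate and thymidylate genes, the targets and carriers of the antifolates for which the line is used, were higher in 7 of 26 tested (26.9%) and lower in 1 (3.85%), shares near those over all genes. Slc19a1, the reduced folate carrier, was above 0 in 78 cells with a median of 115 TPM against 33.3 TPM in the CD8+ T-cells (1.77 ± 0.32, adjusted p = 3.0e-06). Fpgs, which adds the glutamate tail that traps folates in the cell, had medians of 80.03 and 18.2 TPM (1.97 ± 0.26). Ggh, which removes that tail, was at 0 in every L1210 cell and above 0 in 32 CD8+ T-cells, a difference that was not called (−0.90 ln units). Tyms, thymidylate synthase, did not reach the minimum size (−0.50 ± 0.18). Asns, asparagine synthetase, had a median of 106.35 TPM in L1210 cells and was at 0 in most CD8+ T-cells (2.80 ± 0.32). Slc29a2 (1.75 ± 0.23), Mtr, Aprt and Mthfd1l were the other higher members, and the last 3 (1.15, 1.11 and 1.05 ln units) were lost with the covariate. Tk1, thymidine kinase, was lower (−1.89 ± 0.25), with medians of 46.4 and 228 TPM.

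Genes that every cell uses were seldom called. Of 18 tested none was higher, against 20.3% of all genes. B2m, the light chain of class I molecules, was lower, with medians of 702 and 2319 TPM (−1.28 ± 0.13). It was the only lower member (5.56%, against 4.95%). Mitosis genes were called lower in 2 of 20 (10%, Birc5 and Top2a, median of the list −0.34). DNA replication genes were called lower in 3 of 22 (13.6%, Cdc45, Cdc6 and Slbp, median −0.52). Over all genes 4.95% were lower and 20.3% higher, and no gene of these 2 lists was higher. Of these calls, Top2a, Cdc45 and Slbp were lost without the lineage of L1210_8 and L1210_84. The sex chromosome genes gave little to read, as Xist was above 0 in 20 L1210 cells with a highest value of 1.38 TPM, Eif2s3y in 1, Ddx3y in 2, and Kdm5d and Uty in none.

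The genes at 0 in all 81 L1210 cells and above 0 in over 50% of the CD8+ T-cells numbered 64. The rule fixes their direction, so their values are a description. At the top stood AW112010, a long noncoding transcript (above 0 in all 97 CD8+ T-cells, median 800 TPM), Cd3e, Ms4a4b (433 TPM), Cd3g, Ms4a6b (275 TPM), B4galnt1, a ganglioside synthase (158 TPM), and Fabp5, a fatty acid binding protein (100 TPM). Ly6c2, Akip1, Ngfrap1, Fyb, Cd96, Klk8 and Prkcq followed. In the other direction, 93 genes were at 0 in every CD8+ T-cell and above 0 in over 50% of the L1210 cells.

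Several of the genes listed at 0 were neighbours. Among 9904 placed genes expressed in CD8+ T-cells, 253 were at 0 in all L1210 cells, and 46 of them formed 20 runs in which they were next to each other among those 9904, 6 of 3 genes and 14 of 2. The Ms4a6 group on chromosome 19, from Gm8369 at 11485938 to Ms4a6d at 11604849, encodes membrane-spanning proteins of leukocytes. Klrc2, Klrc1 and Klra7 on chromosome 6 encode natural killer receptors, with Klre1 and Klrd1 as a pair nearby, and Ly6c1, Ly6c2 and 9030619P08Rik lie on chromosome 15. Tnfrsf1a and Cd9 on chromosome 6, in a run with 4930417O13Rik (125265476-125287286), are a tumour necrosis factor receptor and a tetraspanin. On chromosome X, Xlr4a and Xlr4b (72 and 75 CD8+ T-cells above 0), Wbp5 and Ngfrap1 (78 and 88 cells), and the retrotransposon-derived Cxx1c, Cxx1a and Cxx1b were at 0 in L1210 cells. Several runs rest on genes seen in few CD8+ T-cells. Galnt3, Ttc21b and Stk39 on chromosome 2 were above 0 in 15 to 50 of them. Klrc2, Klrc1 and Klra7 were above 0 in 12, 19 and 14, Klre1 in 16, and Cxx1c, Cxx1a and Cxx1b in 21, 29 and 38. How many such runs would arise by chance was not tested. Expression alone does not show whether any of these genes is deleted.

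Several of the 15 genes with the largest differences toward L1210 cells were outside the lists. Slc2a3, a glucose transporter, was above 0 in 80 cells with a median of 946 and a highest value of 2903 TPM, and its lineage means did not overlap those of the CD8+ T-cells (5.71 ± 0.22). Mt1 (median 1093 TPM, 4.83 ± 0.40) and Mt2 (631 TPM, 5.50 ± 0.31) encode metallothioneins. Crip2, a LIM domain protein, had a median of 706 TPM (5.75 ± 0.22), Cd81, a tetraspanin of lymphocytes, was also among the 15 (5.07 ± 0.20), and Alpl, an alkaline phosphatase, had a median of 209 TPM (5.04 ± 0.17). Tmem119, a membrane protein best known from microglia, had a median of 378 and a highest value of 1270 TPM and was at 0 in all CD8+ T-cells (5.66 ± 0.20). The most abundant transcripts after Rn45s were Gm20594, Eef1a1, Actb and ribosomal protein genes. Fth1, the heavy chain of ferritin, was among them and was higher than in the CD8+ T-cells, with medians of 4614 and 1181 TPM (1.23 ± 0.13), whereas the light chain Ftl1 was not called (0.14 ± 0.13).

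The second question was how L1210 cells differ from each other. The 50 most variable genes were taken as those whose SD of ln(TPM + 1) over 81 cells lay furthest above the trend of SD on mean, and these values are a description. The gene at rank 50 had an excess SD of 0.676 and the next one of 0.672. They were led not by genes of B-cell function but by transcripts with near copies and by histones. Of the 46 with a value, 24 had over 50% of their 30-base stretches in another annotated gene (median 52.6%), against 3.43% of all tested genes (median 0.667%). There were 16 replication-dependent histone genes among the 50, of which 12 had over 50% of such shared stretches. Members of the pre-B-cell receptor list were also among them, with Vpreb2 at rank 23, Igll1 at 39 and Vpreb3 at 43. Spp1, which encodes osteopontin, stood at rank 27, and Ddit3 and Chac1, genes of the integrated stress response, at 41 and 47. Churc1 at rank 34 ranged from 0 to 16633 TPM with a median of 3942.

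**Figure D3:**
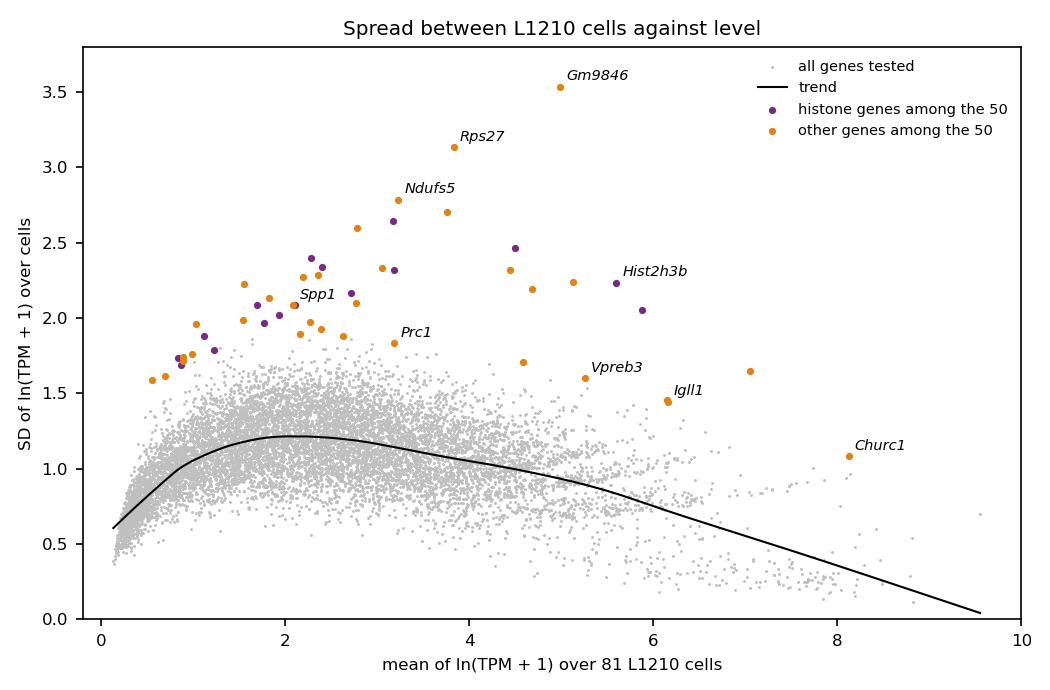
SD of ln(TPM + 1) over 81 L1210 cells against the mean for every tested gene, with the trend; the 50 genes furthest above the trend are coloured, histone genes apart from the others. Gm9846 and Rps27 stand highest, with SDs of 3.54 and 3.13; Rn45s, at a mean of 12.3, lies beyond the axis.

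The most variable pair of all was 1 gene and its copy. Rps27, a ribosomal protein gene, and Gm9846, annotated as its retrogene Rps27rt, had SDs of 3.13 and 3.54 ln units, and 91.9% of the 30-base stretches of the copy occur in Rps27. Both were above 0 in 31 cells, 24 had Rps27 alone, 26 had the copy alone and none had neither. Across the 81 cells their levels ran against each other (r = −0.86, a description of points that share library and scale). The sum of both had an SD of 0.34 and ran from 491 to 4320 TPM with a median of 1932. The summed level thus varied far less than either name. Eif3j1 and Eif3j2, subunits of a translation initiation factor, showed the same pattern in part. Only 3 cells had both, 45 the first alone, 28 the second alone and 5 neither (r = −0.76), but the sum still had an SD of 1.12. For Ndufs5 with BC002163 (r = −0.45, SD of the sum 1.19) and Atp6v0c with Atp6v0c-ps2 (r = −0.31, 1.21) the sums also varied less than either name. Vpreb1 and Vpreb2 did not follow this pattern, since their levels rose together (r = 0.44) and the sum had an SD of 1.36 against 1.34 for Vpreb1 alone.

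**Figure D4:**
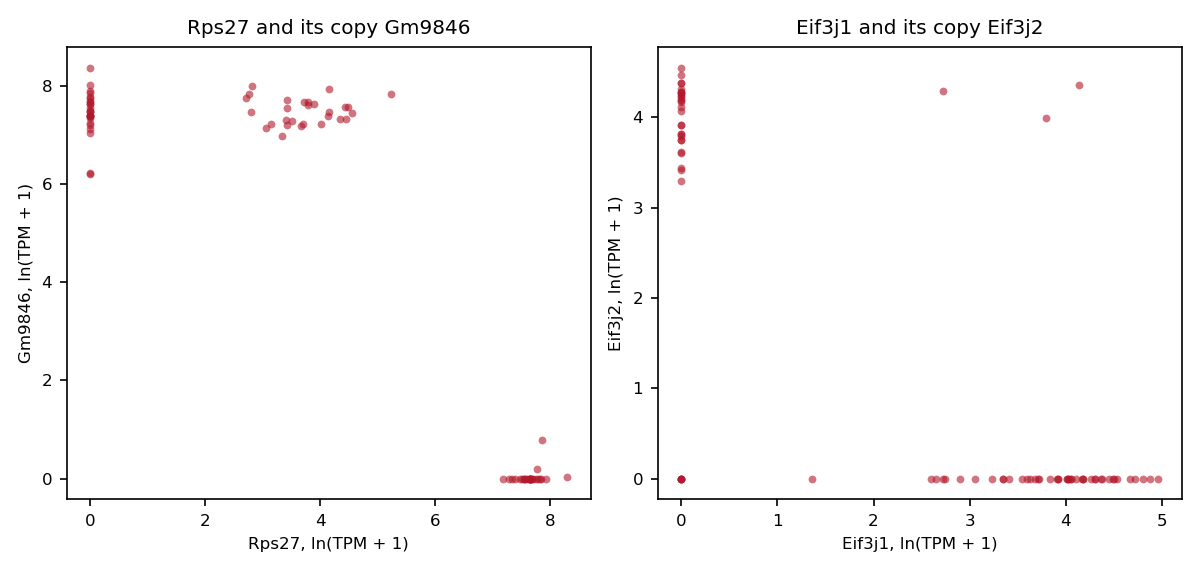
Levels of Rps27 against Gm9846 and of Eif3j1 against Eif3j2 in 81 L1210 cells, both axes in ln(TPM + 1), 1 point a cell. Most cells are above 0 for 1 name only or far higher for 1 of them in the first pair, with 31 cells above 0 for both names in the first pair and 3 in the second.

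Sisters and cousins were then used to ask which of these differences follow lineage. The cells of a lineage shared a lane of the device as well as a founding cell, and the labels name no run. Shared descent therefore cannot be told apart from a shared lane, run or handling in the tests below. Of 10536 genes tested over 79 cells of 24 lineages with at least 2 cells, 1359 differed between lineages (12.9%, limma moderated F test), and the median share of variance that lay between lineages was 0.109. The count changed with the treatment of shallow cells. It was 494 (4.69%) with the number of detected genes as a covariate, 678 (6.37%) among cells with at least 4000 detected genes and 498 (4.68%) without the lineage of L1210_8 and L1210_84, and 303 genes were called without the covariate, with it and with the higher gene minimum alike. Of the sum of squares of detected genes, 55.2% lay between lineages. Calls of Adrm1, Tipin, Wdr61, Cox7c and Chchd1, which were among the 10 of lowest p, were lost without that lineage (adjusted p = 0.63, 0.29, 0.93, 0.72 and 0.26).

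Csdc2 was among the genes with the largest share of variance between lineages. Its variance lay between lineages by a share of 0.70 (adjusted p = 4.5e-09, 2.0e-10 with the covariate and 4.6e-10 without the lineage of L1210_8 and L1210_84). All cells were above 0 in 20 of 24 lineages, none in 1, and 3 were mixed. The lineage of L1210_25, L1210_36, L1210_47 and L1210_58 was at 0 in all 4 cells. In the lineage of L1210_34, L1210_45, L1210_56 and L1210_67, 3 cells were at 0 and the fourth stood at 25.6 TPM. The other mixed lineages hold the shallow cells L1210_15 and L1210_8, which were at 0. In the lineage of L1210_10, L1210_21, L1210_32 and L1210_43 the cells stood at 158, 209, 303 and 153 TPM, above the median of all cells. These 2 families with little or no Csdc2 were not shallow, with means of 7819 and 8357 detected genes.

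The family without Csdc2 was also high in other genes, chosen after their values were seen. The share of all genes in which it was the highest is not given here. It had the highest lineage mean of Vpreb3, with 846, 773, 1040 and 929 TPM in its 4 cells, and likewise of Vpreb1 (1127 to 1363 TPM) and Vpreb2 (163 to 476 TPM). Ifitm1, an interferon-induced membrane protein that was above 0 in only 18 of 81 cells, was above 0 in all 4 at 73.8, 36.1, 105.8 and 200 TPM. Ifitm1 was above 0 in every cell of 3 of the 24 lineages, this family included, and at 0 in every cell of 15 (share 0.57, adjusted p = 5.0e-06). Cdkn1a, which encodes the cell cycle inhibitor p21, was at 28.97 to 58.2 TPM in this family and at 0 in every cell of 9 other lineages (share 0.51, adjusted p = 6.3e-05). It was above 0 in every cell of 5 of the 24 lineages. This family was not the highest, with a mean of 3.70 ln units. The lineage of L1210_40, L1210_51, L1210_62 and L1210_73 stood at 3.99 and the single cell L1210_52 at 4.51.

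**Figure D5:**
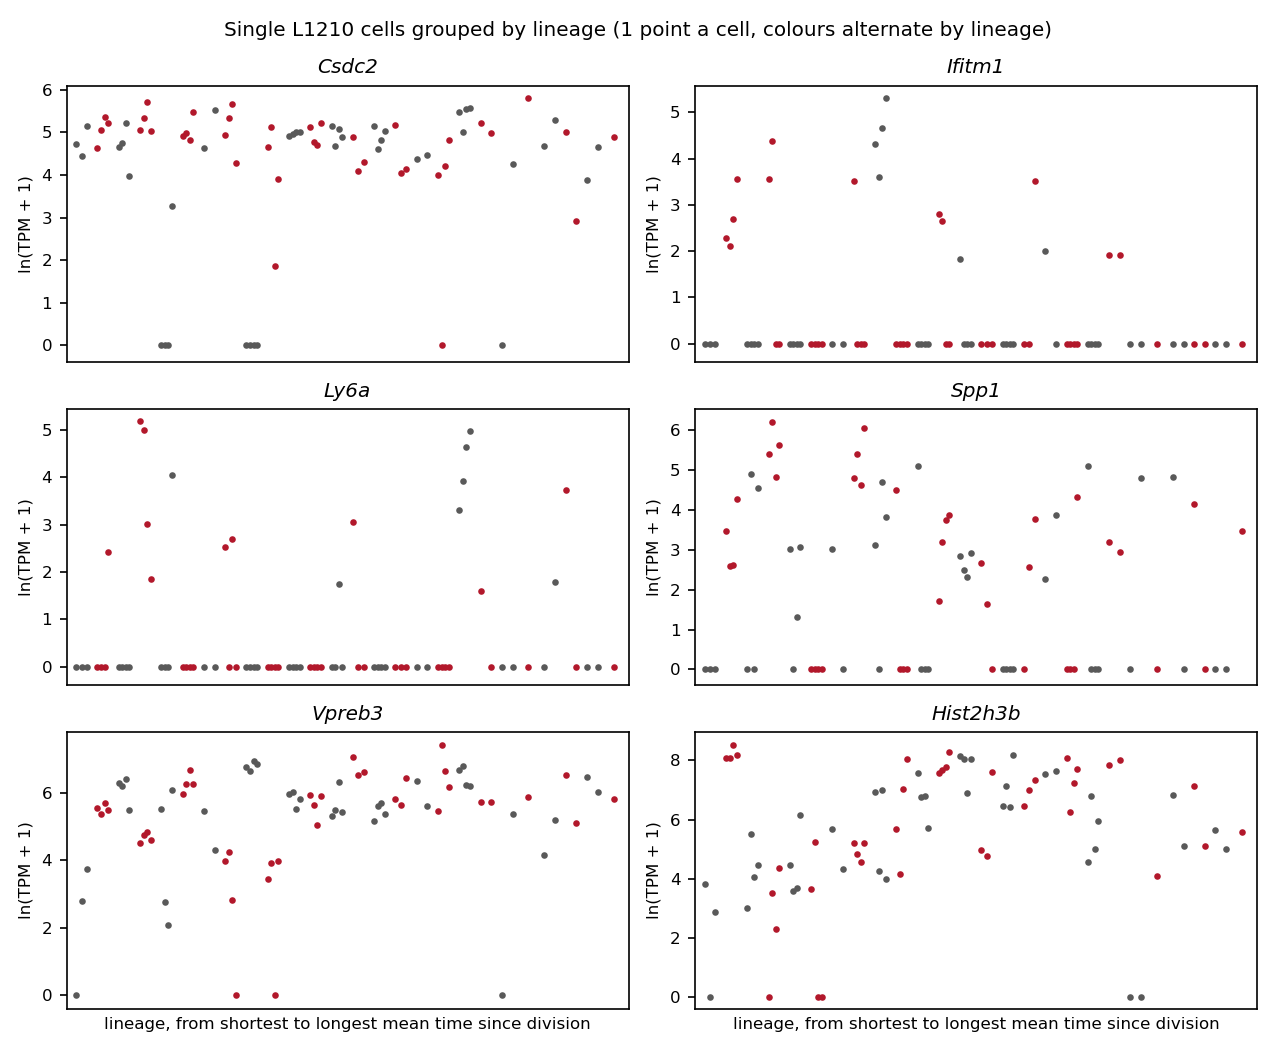
Levels of 6 genes as ln(TPM + 1) in L1210 cells grouped by lineage, 1 point a cell, with colours alternating between lineages, which are ordered by mean time since division. Csdc2 is at 0 in all cells of 1 lineage and high in most others, and Ly6a is above 0 in all cells of 2 lineages.

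Vpreb3 differed between lineages with a share of 0.57 (adjusted p = 3.7e-06, 6.8e-06 with the covariate). Lineage means ran from 2.17 to 6.79 ln units with a median of 5.76, and no lineage was at 0 in every cell. In the lineage of L1210_7, L1210_19 and L1210_30 the cells stood at 0, 15.04 and 41.3 TPM. In that of L1210_2, L1210_14, L1210_69 and L1210_80 they stood at 52.1, 68.2, 15.7 and 0 TPM, against a median of 280 TPM over all cells. The surrogate light chain genes had smaller shares. Igll1 (share 0.32) and Vpreb1 (0.29) were called, but their adjusted p of 7.4e-03 and 0.015 became 0.067 and 0.11 with the covariate, and Vpreb2 (0.37) kept its call (2.5e-03 and 0.027). Among cells with at least 4000 detected genes Igll1 and Vpreb1 kept theirs, with adjusted p of 5.3e-05 and 2.3e-09, and so they did without the lineage of L1210_8 and L1210_84 (1.5e-03 and 4.4e-03). The pre-B-cell receptor list had 4 of 6 members called between lineages, against 12.9% of all genes, 2 with the covariate (Vpreb2 and Vpreb3), against 4.69%, and 5 among cells with at least 4000 detected genes, against 6.37%.

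Ly6a, Lat2 and Clec4a3 were off in most families and on throughout a few. Spp1, Pf4 and Gimap4 were not of this kind, being at 0 in every cell of 4, 9 and 2 of 24 lineages. Ly6a was at 0 in every cell of 14 of 24 lineages and above 0 in every cell of 2 (share 0.57, adjusted p = 4.9e-06). Those of the lineage of L1210_54, L1210_65, L1210_76 and L1210_86 stood at 26.4, 49.9, 103.2 and 145 TPM, and those of the lineage of L1210_10, L1210_21, L1210_32 and L1210_43 at 176, 148, 19.5 and 5.31 TPM. Of 30-base stretches of Ly6a, 32.8% occur in other annotated genes. The second of these families was also the highest of all 26 in Spp1 (221, 493, 124 and 275 TPM) and in Pf4 (93.3, 138, 51.1 and 100.7 TPM), and it was the highest in 1.65% of all tested genes. Spp1 (share 0.32, adjusted p = 8.4e-03) and Pf4 (0.42, 1.1e-03) were called between lineages and kept that call with the covariate. Chosen after their values were seen, Gimap4, a GTPase of lymphocytes, was highest in that family as well (76.9 to 205 TPM, share 0.59), and Lat2, an adaptor of B and myeloid cells above 0 in 14 cells, was above 0 in all 4 cells of it (3.35 to 57.6 TPM) and in both of L1210_63 and L1210_74 (20.2 to 57.2 TPM). Clec4a3, a lectin of myeloid cells, was above 0 in all 3 cells of the lineage of L1210_46, L1210_57 and L1210_68 at 16.4 to 39.9 TPM and in 23 cells in all (0.62, 2.1e-06).

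Prtn3, which L1210 cells expressed as a whole, did not pass the test of lineage (share 0.18, adjusted p = 0.095). Thy1 was called (0.47, 6.8e-04), and Tmem119 too (0.35, 4.9e-03). Tcf4, Cd79a and Dntt were not called (adjusted p = 0.98, 0.28 and 0.66).

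Genes of the cell cycle also followed lineage. Mitosis genes were called in 18 of 20 and DNA replication genes in 13 of 22, against 12.9% of all genes. With the detected genes as a covariate these counts were 13 and 8, against 4.69%, and without the lineage of L1210_8 and L1210_84 they were 12 and 6, against 4.68%. Plk1, a kinase of mitotic entry, stood at 0, 5.18, 0 and 0 TPM in the lineage of L1210_54, L1210_65, L1210_76 and L1210_86 and at 262 and 377 TPM in L1210_63 and L1210_74 (share 0.59, adjusted p = 2.1e-06). Taken over the whole mitosis list, these were also the second lowest and the highest lineage, with mean levels of 1.97 and 4.97 ln units around a median of 3.83. Cdc6, a licensing factor of replication origins, had a share of 0.57 (adjusted p = 1.8e-05).

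Histone genes varied in the same manner. Of the 16 among the most variable genes, 11 were called between lineages and 8 with the covariate, and of the other 34 these counts were 11 and 8. Hist2h3b (share 0.71, adjusted p = 2.6e-10) stood at 3254, 3278, 5016 and 3614 TPM in the lineage of L1210_11, L1210_22, L1210_33 and L1210_44, and at 44.2, 0 and 16.5 TPM in that of L1210_7, L1210_19 and L1210_30. Both families had a mean time since division of 1.07 h. Hist2h3c2 (0.69) and Hist1h2ao (0.60) behaved alike, although near-identical copies make the split between histone names uncertain.

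A last question was whether levels change as the cells move away from their last division. Time since division ran from 0.354 to 12.8 h in L1210 cells (median 4.45 h) and 97.2% of its sum of squares lay between lineages. The spread within a lineage had a median of 0.204 h and reached 2.93 h, in the family without Csdc2. Over the 26 lineage means no gene passed the test in either direction (0% each way), with 584 of 10536 at an unadjusted p under 0.05 and a lowest adjusted p of 0.82 (limma). A fit of single cells with lineage as a random block also called 0 in each direction. Both fits drew a straight line on time, so a level that falls and later rises again could go unseen. Among the 10 of lowest p on each side, Ccnf, which encodes cyclin F, had a slope of 0.19 ± 0.05 ln units per h and Fzr1, an activator of the anaphase-promoting complex, of 0.17 ± 0.05, while Chek1, a checkpoint kinase, had −0.14 ± 0.04 and Myb −0.15 ± 0.05, none of them past the adjusted threshold (adjusted p = 0.82 for each). With time as a covariate, also as a straight line, 1071 genes (10.2%) still differed between lineages, 17 mitosis and 13 replication genes among them. The time and the family of a cell overlap largely in this design, so that a shared position in the cycle and shared descent cannot be told apart for these genes.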

How the data were processed

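Single-cell libraries were made by the study from L1210 and CD8+ T-cells released from the device. The deposited values are TPM, which the authors estimated per gene with RSEM 1.2.3 against a UCSC-annotated mm10 (GRCm38) genome; the submitters' processing notes also name bcl2fastq, TopHat2 and GenomeStudio. TPM keep no read depth, and read numbers were not used here, so precision is given by the spread between cells and lineages. Division times and sister and cousin labels came from the labels. The members and the gene lists were chosen with earlier results of these data known.

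Values were transformed to ln(TPM + 1). Genes above 1 on that scale in over 10% of the cells of either type were tested. Cell types were compared on lineage means, lineages with a moderated F test over cells, and time as a slope over lineage means, with limma 3.58.1 (R 4.3.3; eBayes with trend and robust fitting), after a test on simulated data. Of 200 genes changed in the simulation, these tests recovered 90%, 98.5% and 100%, in that order. They also called 0, 6 and 39 of the unchanged genes. The shares recovered hold only for the sizes of change put in, and recovery of smaller changes was not tested. Apart from the changes put in, simulated cells shared no lineage or depth effects, unlike these data. P-values were adjusted by the Benjamini-Hochberg method over all genes tested. Errors of differences are SE. Python 3.11.15, pandas 2.3.3, numpy 2.4.6, statsmodels 0.14.6 and matplotlib 3.10.9 did the rest. Positions came from GENCODE release 21 on GRCm38, promoters from RefSeq. Shared stretches are the percent of 30-base windows of the annotated transcripts of a gene that occur in another gene.

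Named were the list members, the 20 highest genes, the 15 largest differences in each direction, the 20 most variable, the 10 of lowest p between lineages and on each side of time, the 15 highest genes at 0 in L1210 cells, members of runs, and Vpreb3, Vpreb2 and Csdc2; other genes were chosen after their values were seen (Gimap4, Lat2, Clec4a3, Ifitm1, Spp1, Ddit3, Chac1, Churc1, Eif3j1, Eif3j2, Klhl9, Focad and the interferon zeta genes). Of the gene names in the table, 27 had been turned into dates by a spreadsheet and could not be assigned. Some list members are counted but not reported by name here. Alternatives changed the pseudocount, the gene and cell filters, the scaling, the covariates and the cells left out.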

Additional observations from a re-analysis of the deposited data

Results flagged for a closer look

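A B-lineage transcript was also found in L1210 libraries that were left out of every comparison. Of those 7 libraries, Igll1 was above 0 in 2, at 2863 TPM in L1210_41, which had 689 detected genes, and at 692 TPM in L1210_50, a doublet. Igll1 was at 0 in all 97 CD8+ T-cells. Cd3e was at 0 in all 7. No group of 4 to 10 replicate samples was available for a test of single outlying samples.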

How the results depend on the processing

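Counts are of genes called higher and lower than in CD8+ T-cells (2305 and 563), differing between lineages (1359), and rising or falling with time (0 and 0). A pseudocount of 0.1 TPM gave 4389 higher and 919 lower, and one of 10 TPM 421 and 232. With no minimum difference 5695 were higher and 1538 lower. With detected genes as a covariate 1276 were higher, 494 differed between lineages and 1 rose with time (Hyls1). A minimum of 4000 detected genes gave 678 between lineages. Lineages of 3 or 4 cells gave 513 between lineages and 1 falling with time (Cdc20). Without the lineage of L1210_8 and L1210_84, chosen after seeing the data, 498 differed between lineages and 2 rose (Hyls1 and Kpna2). The cause of these shifts was not tested. In all, 14 results moved, 59 stayed within 1.5 times and 0 reversed. B-lineage members called higher ranged from 23 with a pseudocount of 10 TPM to 34 with 0.1 TPM, the 50 most variable genes kept 40 to 48 names, and the genes at 0 numbered 64 to 73. Of 150 named calls against the CD8+ T-cells, 96 were kept under every setting, 36 were lost with a pseudocount of 10 TPM alone and 18 under another setting. No paired analysis was possible because the running numbers only name cells and lineages of the 2 cell types share no number. Depth is not given by TPM, and genes at low level are those that a value of 0 limits most.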
